A study of Mus musculus with 6 samples.

Results

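miR-22 is a microRNA found in heart and skeletal muscle, though not known only from there, and its hairpin gives a pair of mature strands, miR-22-3p and miR-22-5p. Both were found by name among the 1966 mature miRNA rows of the count table, so 2 of 1966 rows are described here. The hearts came from 6 males of wild-type genotype, and small RNA was sequenced 8 weeks after an operation. In transverse aortic constriction (TAC) the aortic arch is narrowed, so that the left ventricle works against pressure, and sham mice were operated on without it. The sham group held animals 47, 68 and 69 and the TAC group animals 29, 78 and 81, with 1 library each. The tissue is whole heart, so fewer cells of a type and less RNA per cell cannot be told apart.

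MicroRNAs are short RNAs that guide Argonaute proteins to messenger RNAs, mostly through bases 2 to 8 of the miRNA, the seed, and lower the output of those messages. One strand of a hairpin, the guide, is usually kept, and the other, the passenger, is mostly lost. In studies of mouse hearts miR-22 is described as a promoter of cardiomyocyte hypertrophy, with the histone deacetylase Hdac4 and the deacetylase Sirt1 among its described targets. Mice without miR-22 are described as showing a weaker growth response to cardiac stress.

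The sequences of both strands are shown because their seeds set which messages each could recognise. Both are from RefSeq (GRCm38.p6), written 5′ to 3′ with the seed in capitals:

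miR-22-3p: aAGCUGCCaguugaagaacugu

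miR-22-5p: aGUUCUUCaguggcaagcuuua

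miR-22-3p lies at chr11:75463772-75463793 and miR-22-5p at chr11:75463734-75463755, both on the plus strand of mm10 and both 22 nt long. Each has 1 place in the table. The hairpin, gene Mir22 (RefSeq gene 387141), spans chr11:75463716-75463810. It lies inside exon 2 of the noncoding host gene Mir22hg, and the GENCODE M21 annotation places the same stretch in exon 2 of a transcript of the protein-coding gene Tlcd2 on the same strand. The 95 nt hairpin is shown with both mature strands in capitals, the 5p strand first:

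Mir22 hairpin: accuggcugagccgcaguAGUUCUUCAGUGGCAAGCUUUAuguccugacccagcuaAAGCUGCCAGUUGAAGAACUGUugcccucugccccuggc

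The lowest-energy fold of this hairpin (ViennaRNA 2.7.2) had -41.9 kcal/mol. In that fold 19 of the 22 bases of miR-22-5p paired with miR-22-3p, and all 7 seed bases of miR-22-3p were among the paired ones. No other of the 1674 table rows with a RefSeq sequence had the seed of either strand. Bases 2 to 7 of miR-22-5p recurred in 2 rows, miR-6935-3p and miR-7092-3p, which held 1 and 0 counts over all libraries. No row came within 2 mismatches of either strand when shifts of up to 2 nt were counted as mismatches. The nearest row to miR-22-3p was miR-3966, at 3. Neither row of miR-22 overlapped a row on the opposite strand. Both strands were therefore counted in rows of their own, without a near-copy among the matched rows.

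Total counts were 3509001, 1818725 and 2263006 in sham 47, 68 and 69. They were 1795831, 1640109 and 1226187 in TAC 29, 78 and 81. Every TAC library thus held fewer counts than every sham library, so depth and TAC cannot be told apart here. The first comparison asks whether the level of miR-22 differs between hearts with TAC and sham hearts. Both strands were higher in TAC on the main scale, miR-22-3p by 1.21-fold and miR-22-5p by 1.36-fold, and both passed the test narrowly. As a share of all counts of a library, miR-22-3p did not differ between the groups beyond the spread between mice. The call was lost when libraries were scaled by their totals. It was also lost in alternatives that kept the main scaling, such as limma-voom or leaving out 1 mouse in most cases. The values on both scales are given next.

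miR-22-3p, the strand with more counts, was read 14458, 6641 and 9537 times in hearts 47, 68 and 69 of the sham group. In hearts 29, 78 and 81 of the TAC group it was read 7399, 5909 and 4922 times. After scaling with TMM factors, which assume that most miRNAs do not change, these were 3698, 3335 and 3737 CPM (counts scaled to an equal library size) for sham. For TAC they were 4477, 3972 and 4627 CPM, so that the lowest TAC heart lay above the highest sham heart. The sham mean was 3590 ± 222 CPM and the TAC mean 4358 ± 343 CPM (± SD, 3 mice per group). The log2 fold change was 0.28 ± 0.09 (SE), or 1.21-fold with a 95% interval from 1.06 to 1.40 (edgeR quasi-likelihood test, adjusted p = 0.0431).

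miR-22-5p, the scarcer strand, was read 555, 242 and 340 times in sham hearts 47, 68 and 69. The TAC hearts 29, 78 and 81 gave 264, 289 and 199 reads. On the TMM scale the sham values were 142, 122 and 133 CPM, and the TAC values 159.7, 194 and 187 CPM. The groups did not overlap here either. The sham mean was 132 ± 10.3 CPM and the TAC mean 180.3 ± 18.2 CPM (± SD). The log2 fold change was 0.45 ± 0.14 (SE), or 1.36-fold with a 95% interval from 1.09 to 1.71 (edgeR adjusted p = 0.0450).

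**Figure D1:**
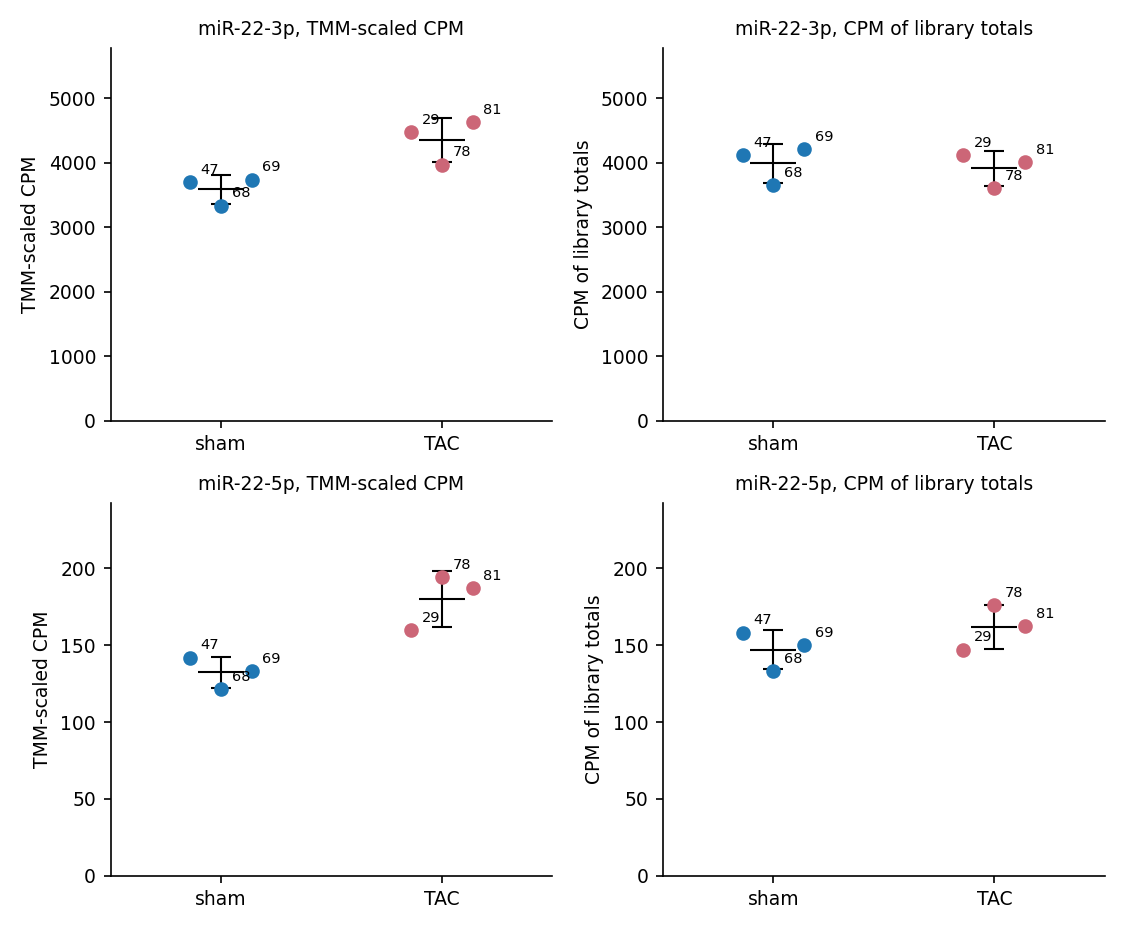
Level of miR-22-3p (top) and miR-22-5p (bottom) in each heart, in CPM on the TMM scale (left) and in CPM of library totals (right). Points are mice with their animal number, and bars are the group mean ± SD (n = 3 each). On the left all TAC points lie above all sham points, and on the right the groups overlap.

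These calls were common in the data. Of 354 miRNAs tested, 30.5% were called in either direction and 19.2% were called higher in TAC (68 miRNAs), while in 51.4% the groups did not overlap. By p, miR-22-3p stood in place 96 and miR-22-5p in place 103 of the 354. The rise of miR-22-3p was the smallest of the 68 called rises, whose median was 0.63 on the log2 scale, and that of miR-22-5p was the 7th smallest. The median log2 change of all 354 was 0.07, so miR-22-3p lay 0.21 and miR-22-5p 0.37 above it. Among the 20 miRNAs within 2-fold of the mean level of miR-22-3p, 6 were called higher and 2 lower, with a median log2 change of 0.02.

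As a share of all counts of its library, miR-22-3p held 0.412%, 0.365% and 0.421% in sham 47, 68 and 69. It held 0.412%, 0.360% and 0.401% in TAC 29, 78 and 81, so the ranges of the groups overlapped over most of their length. The exact Clopper-Pearson 95% interval of each share was within 2.83% of its value, so counting error was small beside the spread between mice. The sham mean was 0.3995% ± 0.0302 and the TAC mean 0.391% ± 0.0273 (SD, n = 3 each, two-sided exact permutation p = 0.5, where 3 against 3 cannot go below 0.1). For miR-22-5p the shares were 0.0158%, 0.0133% and 0.0150% in the sham hearts and 0.0147%, 0.0176% and 0.0162% in the TAC hearts, in the same order. It held 0.0147% ± 0.00128 in sham and 0.0162% ± 0.00146 in TAC (exact permutation p = 0.3), again with overlapping groups.

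With library totals in place of TMM factors the log2 change of miR-22-3p was -0.03 ± 0.09 (edgeR adjusted p = 0.829) and that of miR-22-5p 0.14 ± 0.15 (adjusted p = 0.519). TMM factors were 1.10 to 1.13 in the sham libraries and 0.868 to 0.921 in the TAC libraries, so TMM raised each TAC value relative to sham. A scaling factor shifts all miRNAs of a library together, so the distance of miR-22-3p from the median of all tested, 0.21 with TMM and 0.20 with library totals, is nearly the same by construction. The most abundant row, miR-1a-3p of heart muscle, took 17.1% of counts on average over all 6 libraries. Its level differed between the groups, at 125166 ± 14855 CPM in sham and 226655 ± 23673 CPM in TAC on the TMM scale (± SD).

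Across 16 alternative analyses the call of miR-22-3p was kept in 1 and lost in 15. It was kept without TAC 78 (edgeR adjusted p = 0.0470) and lost without sham 47 (0.0708), sham 68 (0.124), sham 69 (0.102), TAC 29 (0.116) and TAC 81 (0.172). The call of miR-22-5p was kept with limma-voom (adjusted p = 0.0366) and lost in the other 15, with adjusted p of 0.0524 to 0.143 when 1 mouse was left out. The log2 change of miR-22-5p was above 0 in all 16, and that of miR-22-3p in 15.

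**Figure D2:**
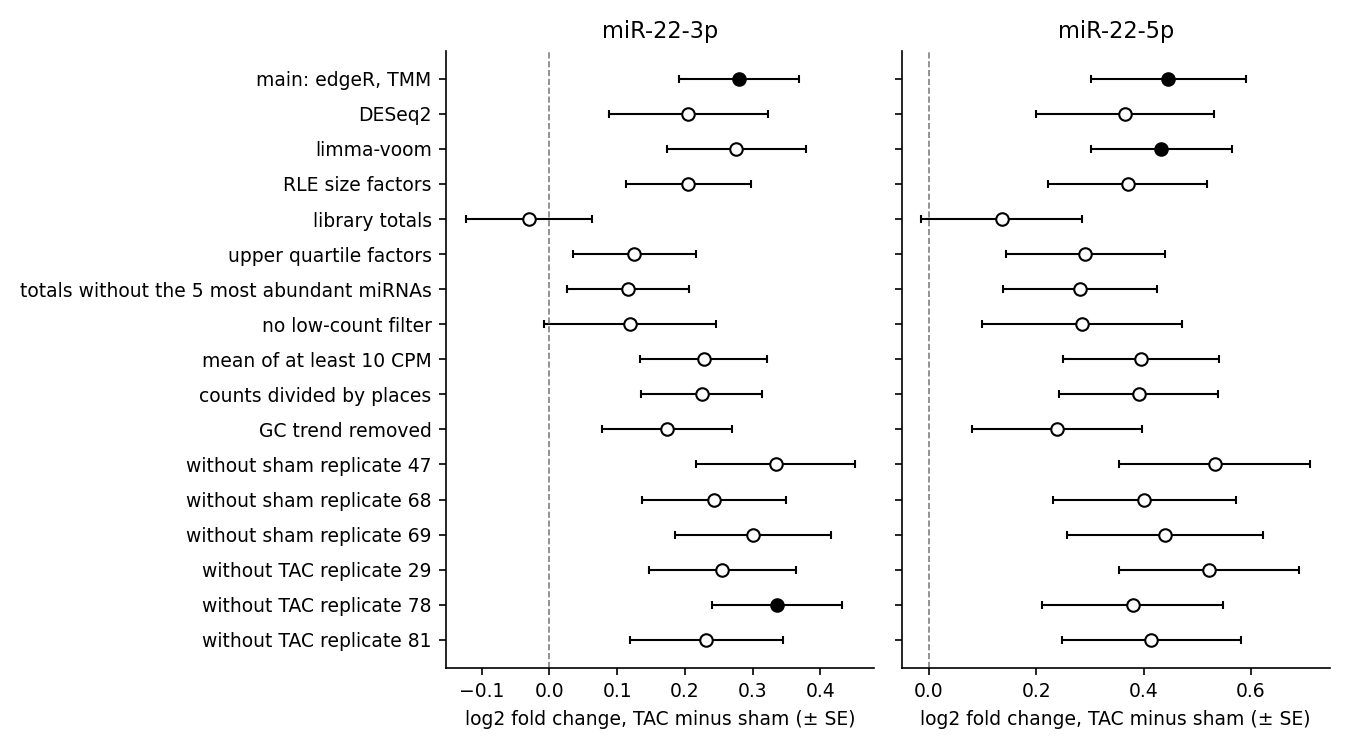
Log2 fold change of miR-22-3p (left) and miR-22-5p (right), TAC minus sham, with ± SE, in the main analysis (top row) and 16 alternatives. Filled points have an adjusted p under 0.05. Only miR-22-3p with library totals lies below 0, at -0.03, and 1 alternative per strand keeps the call.

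A ratio of counts within a library needs no scaling between libraries. The mean log2 ratio of miR-22-3p was higher in TAC against 221 of the 353 other tested miRNAs (62.6%), with a median change of 0.21. This restates its distance from the median of all tested miRNAs and adds no separate support. The groups overlapped in 203 of the 353 ratios, all TAC values were above all sham values in 111, and all were below in 39. For miR-22-5p the mean ratio was higher against 257 of 353 (72.8%), with overlap in 200, and TAC above sham in 136 and below in 17 of the rest. Such counts were not made for other miRNAs, so these have no background to be read against. In order of counts, miR-22-3p was row 33, 35 and 34 of 1966 in sham 47, 68 and 69 and row 35 in each of the TAC libraries. miR-22-5p was row 128, 145 and 136 in sham and row 121, 111 and 114 in TAC, a higher place in every TAC heart than in any sham heart. How many other rows separated the groups by place was not counted. On the TMM scale the groups did not overlap in 51.4% of tested miRNAs.

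The counts of miR-22-3p were also set against 6 miRNAs known from muscle or mesenchymal cells. These were chosen after their changes were seen, which fixes the sign of each ratio, so the ratios are descriptions and no test is given. miR-499-5p lies in an intron of the myosin gene Myh7b and is the neighbour of miR-22-3p in abundance. For each count of miR-499-5p, sham hearts 47, 68 and 69 had 1.39, 1.34 and 1.38 counts of miR-22-3p. TAC hearts 29, 78 and 81 had 0.955, 0.789 and 0.979. miR-22-3p thus had more counts than miR-499-5p in every sham heart and fewer in every TAC heart, a 1.51-fold lower ratio. How well a small RNA library captures a miRNA depends on its sequence, so the counts do not show which of the pair is the more abundant in the cell.

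The same ratio to miR-1a-3p, the main miRNA of striated muscle, was 1.49-fold lower in TAC, and that to miR-208a-3p, encoded in the adult cardiac myosin gene Myh6, was 1.22-fold lower. To miR-133a-3p, a regulator of muscle growth, it was 1.27-fold lower, where TAC 29 (0.0871) and sham 68 (0.0872) almost touched. None of these 4 ratios overlapped between groups, and all 4 partners were themselves called higher. Over all 353 other tested miRNAs, the ratio of miR-22-3p was lower in TAC without overlap for 39 and higher for 111. For miR-22-5p, of the ratios to these 4 partners, only that to miR-499-5p did not overlap, at 1.35-fold lower in TAC. Over all 353, its ratio was lower without overlap for 17 and higher for 136.

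Against miR-21a-5p and miR-214-3p, both of which fell on the TMM scale, the ratio was higher in TAC. For each count of miR-21a-5p, known from cardiac fibroblasts, sham hearts 47, 68 and 69 had 0.281, 0.203 and 0.297 counts of miR-22-3p. TAC hearts 29, 78 and 81 had 0.589, 0.726 and 0.784. This is a 2.70-fold higher ratio in TAC, and that to the mesenchymal miR-214-3p was 3.62-fold higher. These 2 do not stand for all cells outside the cardiomyocyte: miR-143-3p (0.64 ± 0.11) and miR-145a-3p (0.89 ± 0.13) of smooth muscle, miR-451a (1.15 ± 0.20), made in erythroid cells, and the lymphocyte miRNA miR-150-5p (1.17 ± 0.15) all had larger log2 changes on the TMM scale than miR-22-3p (0.28). Some other rows of smooth muscle and leukocytes were lower than miR-22-3p and not called: miR-145a-5p (0.21 ± 0.10), miR-146a-5p (0.20 ± 0.13), miR-342-3p (0.21 ± 0.16) and miR-223-3p (-0.19 ± 0.24). The erythroid miR-144-3p (0.28 ± 0.24) and miR-144-5p (0.37 ± 0.23) were not called either.

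**Figure D3:**
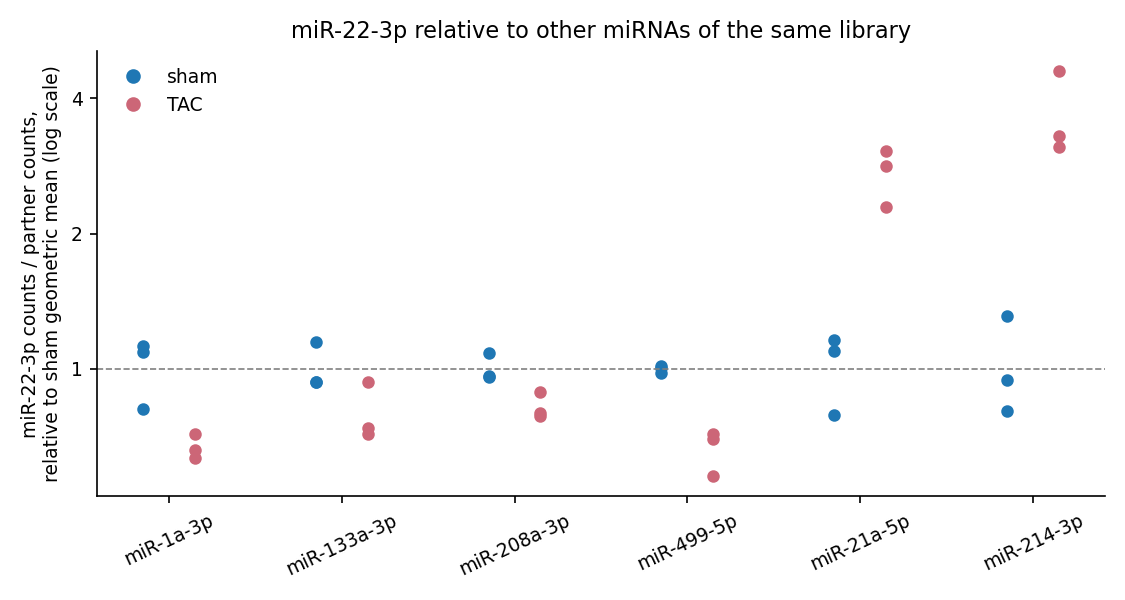
Counts of miR-22-3p divided by counts of 6 other miRNAs of the same library, relative to the geometric mean of that ratio in sham (log axis, 1 point per mouse). TAC points lie below all sham points for the 4 muscle miRNAs and above them for miR-21a-5p and miR-214-3p.

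The share of the strands asks whether the hairpin's products were kept in the same proportion. miR-22-5p made up 3.70%, 3.52% and 3.44% of the counts of both strands in sham 47, 68 and 69. It made up 3.45%, 4.66% and 3.89% in TAC 29, 78 and 81, with exact Clopper-Pearson 95% intervals of 3.05% to 3.88%, 4.15% to 5.22% and 3.37% to 4.45%. TAC 78 and TAC 81 stood above every sham heart, and TAC 29 lay among them. Put as a ratio, sham hearts 47, 68 and 69 had 26.1, 27.4 and 28.1 counts of miR-22-3p per count of miR-22-5p. TAC hearts 29, 78 and 81 had 28.0, 20.4 and 24.7. The sham mean of the share was 3.55% ± 0.131 and the TAC mean 3.998% ± 0.617 (SD, n = 3 each). The log2 ratio of miR-22-3p to miR-22-5p was 4.76 ± 0.05 in sham and 4.59 ± 0.23 in TAC (exact permutation p = 0.3), so no shift between the strands was shown. Without TAC 78 the difference of -0.17 was -0.05.

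Among 88 hairpins with both strands tested, the groups did not overlap in this ratio for 29.5%, and miR-22 was not one of them. The change in miR-22 was smaller in size than in 62 and larger than in 25 of the others, whose median size was 0.32 on the log2 scale. The furthest shifts toward the 5p strand were in miR-296 (-1.71), miR-223 (-1.14) and miR-150 (-0.69), and toward the 3p strand in miR-21a (1.60), miR-708 (1.29) and miR-3057 (1.20). The scarcer strand had as few as 6 counts in a library for miR-21a, 2 for miR-708, 7 for miR-3057, 10 for miR-223, 18 for miR-296 and 20 for miR-150. The sham ratio of the strands was more lopsided than that of miR-22 in 22 hairpins. miR-22 was 1 of 9 hairpins with both strands called higher, along with those of miR-133a, miR-143, miR-181c, miR-185, miR-208a, miR-30a, miR-30b and miR-378a. In the other 8 the log2 changes of the 3p and 5p strands were all larger than those of miR-22: 0.56 and 0.55 for miR-208a, 0.62 and 0.95 for miR-133a, and 0.76 and 0.77 for miR-30a. The nearest for the 5p strand was miR-143 (0.64 and 0.47), where miR-22-5p was at 0.45 ± 0.14 (SE). The differences from miR-22 were not tested. Both strands were called lower in 4 hairpins, 1 strand only in 24, and neither in 51. These calls carry the same scaling as that of miR-22.

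**Figure D4:**
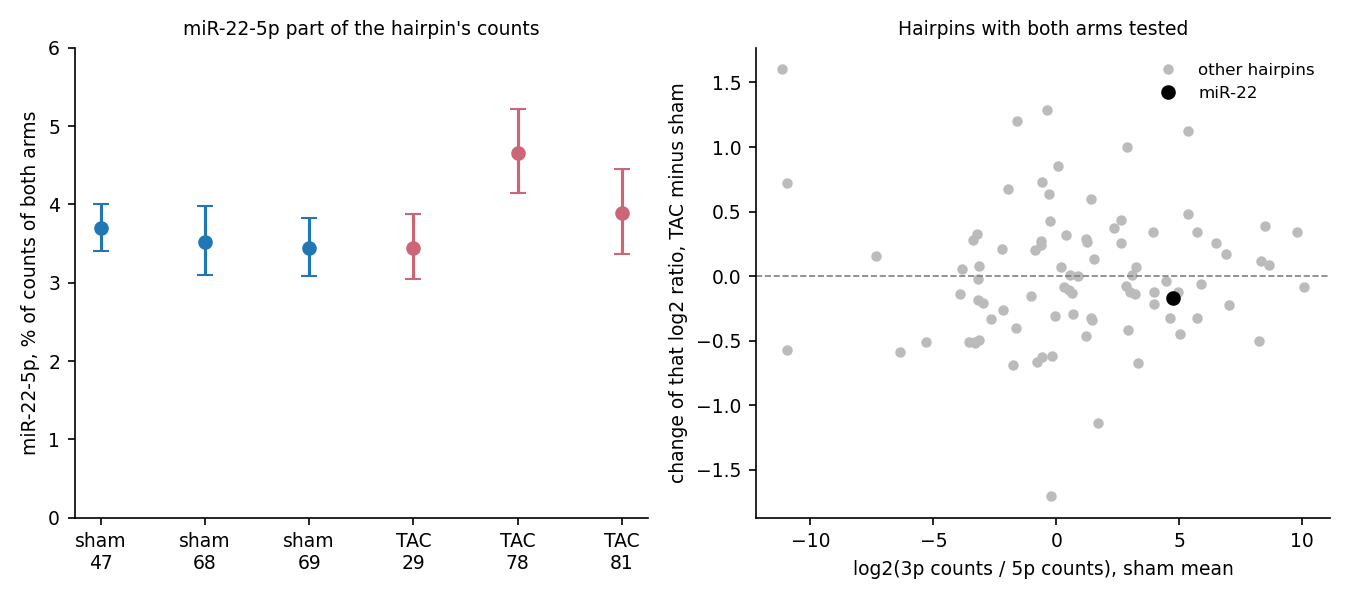
Left, miR-22-5p as a percent of the counts of both strands in each library, with exact 95% intervals for counting error. Right, change of the log2 ratio of 3p to 5p counts against its sham mean in 88 hairpins, with miR-22 in black at 4.76 and -0.17.

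miR-22-3p varied little between mice of a group. Its pooled SD within groups was 0.10 on the log2 CPM scale, and 39 of the 354 tested miRNAs had a smaller one, against a median of 0.23 over all tested and 0.15 among the 20 of similar level. That of miR-22-5p was 0.13. In mean level over all libraries miR-22-3p stood at place 34. Directly above it were miR-30e-5p, of an abundant cardiomyocyte family (3729 ± 450 CPM in sham, 6681 ± 387 in TAC), and miR-149-5p (4147 ± 533 and 5237 ± 505). Below it were miR-499-5p (2621 ± 117 and 4814 ± 189) and miR-744-5p (3549 ± 619 and 3068 ± 86.3, SD, n = 3 each). In sham the range of mean ± SD of miR-22-3p overlapped those of all 4 but miR-499-5p. Of these 4, miR-30e-5p and miR-499-5p were called higher, and miR-149-5p, at an edgeR adjusted p of 0.0515, and miR-744-5p were not.

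The profiles most like that of miR-22-3p were found by Pearson's r of log2 CPM over the 6 libraries, among 296 others that averaged 10 CPM or more. The 6 libraries fall into 2 groups, so r carries the group difference and is given as a description. They were miR-30c-5p (r = 0.96), miR-15a-5p (0.95), miR-340-3p (0.93), let-7a-1-3p (0.92), miR-30b-3p (0.92) and miR-215-5p (0.92). miR-30c-5p, described as restraining matrix genes in the heart, went from 11133 ± 1472 to 17653 ± 2068 CPM. Its log2 change was 0.67 ± 0.12 (edgeR adjusted p = 0.00486), larger than that of miR-22-3p. Of the 6, 4 were called higher, and miR-15a-5p and miR-340-3p did not pass. Of all tested miRNAs 19.2% were called higher, but a choice by r favours rows that differ between the groups. For miR-22-5p the nearest were miR-365-1-5p (0.95), let-7d-3p (0.94) and miR-181a-1-3p (0.94), and its r with miR-22-3p was 0.77. Some of these rows were scarce: miR-365-1-5p averaged 11.3 CPM and miR-15a-5p 16.7 CPM, close to the limit of 10. miR-365-1-5p was not called, and its groups overlapped.

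None of the rows next to the hairpin on chromosome 11 was called on the TMM scale. miR-132-3p and miR-132-5p, from a transcript described as pro-hypertrophic, lie 290.0 kb upstream on the same strand. The level of miR-132-3p was 53.5 ± 8.32 CPM with sham surgery and 45.4 ± 7.80 after TAC, a log2 change of -0.23 ± 0.19, and miR-132-5p was at -0.47 ± 0.23. Downstream, miR-3971 at 87.7 kb had 0 counts in every library, and miR-423-3p at 1614 kb was at -0.23 ± 0.09 (edgeR adjusted p = 0.0753). In other settings miR-423-3p was called lower in 8 of 16, among them DESeq2 (adjusted p = 0.0331) and edgeR with library totals (0.00382), and miR-132-5p in 1, library totals (0.0342). Their difference from miR-22 was not tested.

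miR-22 was next set beside other miRNAs described as promoting cardiomyocyte growth. Of 22 listed, 20 were tested. In TAC 4 were called higher (19.2% of all tested miRNAs were), 2 lower (11.3% of all were) and 14 were not called, with a median log2 change of -0.08 against 0.07 for all tested. miR-499-5p rose from 2621 to 4814 CPM (0.88 ± 0.08) and miR-19b-3p, of the miR-17 cluster, by 1.07 ± 0.21. miR-21a-5p fell by 1.15 ± 0.15 on the log2 scale and miR-199a-5p, a mesenchymal miRNA with 2 places, fell by 0.89 ± 0.16. The most abundant members without a call were miR-27b-3p (-0.19 ± 0.08), miR-23a-3p (0.01 ± 0.10) and miR-221-3p (-0.40 ± 0.22). miR-328-3p, called at 0.31 ± 0.10, and miR-208a-3p, at 0.56 ± 0.13, lay nearest to miR-22-3p (0.28) and miR-22-5p (0.45) among the called members. miR-328-3p passed only narrowly (edgeR adjusted p = 0.0499), and with library totals neither of this pair was called higher.

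Of 15 miRNAs described as restraining hypertrophy, 14 were tested, and 10 were called higher in TAC, 0 lower and 4 not called, with a median log2 change of 0.59 (19.2% of all tested were higher). At an unadjusted edgeR p under 0.05, and with DESeq2, 0 were lower as well. miR-150-5p, of lymphocytes, rose by 1.17 ± 0.15, miR-30a-5p by 0.77 ± 0.10, miR-101a-3p by 0.76 ± 0.09 and miR-101b-3p by 0.73 ± 0.09. The last pair is near-identical in sequence and can share reads, as can miR-133a-3p and miR-133b-3p. The other called members rose by 0.52 (miR-185-5p) to 0.86 (miR-1a-3p), so every called member lay above both miR-22 strands on the TMM scale. The 4 without a call were miR-26a-5p (0.21 ± 0.09), miR-145a-5p (0.21 ± 0.10), miR-98-5p (0.08 ± 0.15) and miR-223-3p (-0.19 ± 0.24). With library totals the restraining list kept 6 higher calls, and the promoting list had 2 higher and 6 lower.

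**Figure D5:**
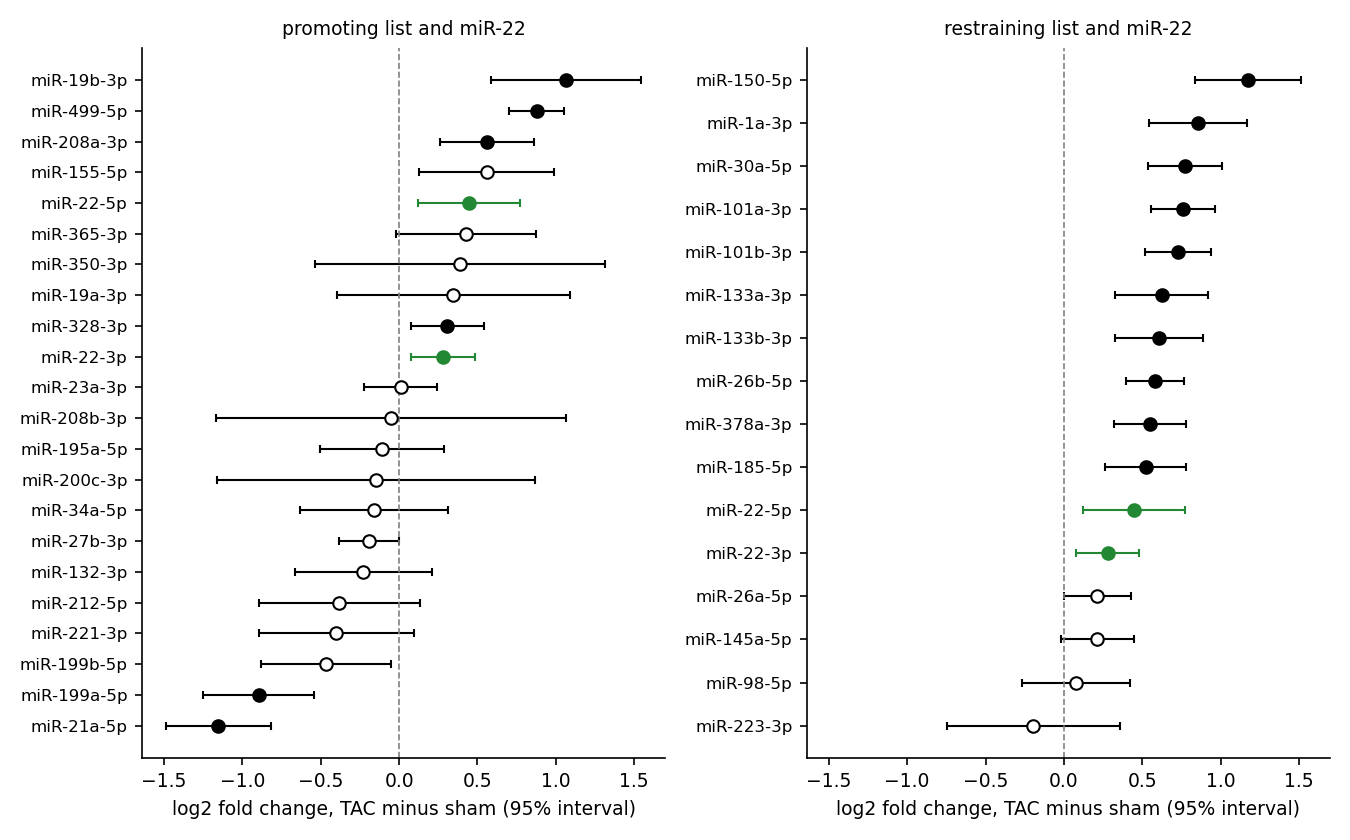
Log2 fold change, TAC minus sham, with 95% intervals, of tested members of the promoting list (left) and the restraining list (right), with both miR-22 strands in green in each. Filled points have an edgeR adjusted p under 0.05. miR-22-3p, at 0.28, and miR-22-5p, at 0.45, lie below the 10 called members of the restraining list.

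Markers of cell types were counted in the same contrast, beside the 19.2% of all tested miRNAs called higher and the 11.3% called lower. These calls and summed levels are on the TMM scale and carry the same scaling as the call of miR-22. Of 7 cardiomyocyte rows 6 were tested and all 6 rose, with a summed level of 152519 to 184053 CPM in sham and 275039 to 327759 in TAC. With library totals miR-208a-3p, one of them, was not called higher. Smooth muscle rows rose in 3 of 4 (34646 to 43269.8 CPM in sham, 59555 to 62589 in TAC) and mesenchymal rows fell in 4 of 5 (13664 to 21935 and 11678 to 12165). Leukocyte rows rose in 2 of 7 tested (1197 to 1589 and 1596 to 1746) and red blood cell rows in 1 of 3 tested (999.9 to 1165 and 1642 to 3063), on few rows each. The defining rows miR-126a-3p and miR-126a-5p of endothelium, miR-142a-3p, miR-486a-5p, miR-122-5p and miR-9-5p were at 0 in every library. An opposite-strand row overlaps each of them. Of 90 rows with such an overlap at every place 82 were at 0, against 784 of 1873 rows without one. These zeros were therefore not taken to mean absence. The part of cell makeup in the values of miR-22 was not tested.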

How the data were processed

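The values are raw read counts for each mature miRNA, deposited by the authors as whole numbers in a single table, with a column for each animal. mm10, HISAT2, StringTie and DESeq2 are named, without role, in the submitters' processing notes. How reads were trimmed, assigned to strands and counted is not given in the sources used here. Each of the 6 columns was assigned by the animal number in its label, and 0 were left over. Animal numbers are not shared between groups and no batch is given.

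All 1966 rows entered the low-count filter filterByExpr, and the 354 that passed were fitted and tested. The fit used edgeR 4.0.16 in R 4.3.3 (quasi-likelihood test with TMM factors, without covariates, Benjamini-Hochberg adjustment). A miRNA with an adjusted p under 0.05 is called, and rose and fell refer to TAC relative to sham. The fit was tested on simulated data. At these depths 3 counts, the limit that a count of 0 allows, are 0.855 to 2.45 CPM, for counting error only. Strand ratios used a pseudocount of 0.5, and shares and the strand ratio were compared by exact permutation (scipy 1.17.1). Sequences were matched by name to RefSeq for 1675 rows, and the host gene came from GENCODE M21.

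The miR-22 rows and all lists were chosen with earlier results of these data known. Named miRNAs are both strands, the nearest in profile, abundance and place, the strand-ratio extremes, and from each list the 4 called members with the smallest p and the 3 most abundant uncalled ones. The 6 partners of the count ratios, and other list members and hairpins with values, were chosen outside that rule, after their values were seen. Alternatives were DESeq2 1.42.0, limma-voom (limma 3.58.1), 4 scalings, 2 low-count filters, counts divided by places, a GC trend (span 0.75) and leaving out each mouse.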

Additional observations from a re-analysis of the deposited data

How the results depend on the processing

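Values are log2 changes, TAC minus sham. miR-22-3p, at 0.28 and called in the main analysis, lost its call with DESeq2 (0.20), limma-voom (0.28), RLE size factors (0.20), upper quartile factors (0.13), totals without the 5 most abundant miRNAs (0.12), no low-count filter (0.12), a mean of at least 10 CPM (0.23), counts divided by places (0.22) and a GC trend removed (0.17), and turned to -0.031 with library totals. Its range without 1 mouse was 0.23 to 0.34. Adjusted p over these alternatives ran from 0.0470 to 0.829. miR-22-5p, at 0.45, lost its call with DESeq2 (0.37), RLE (0.37), library totals (0.14), upper quartile (0.29), without the 5 most abundant (0.28), no filter (0.29), at least 10 CPM (0.39), divided by places (0.39) and GC trend (0.24), with 0.38 to 0.53 without 1 mouse and adjusted p from 0.0366 to 0.519. The cause was not tested. GC content was known for 315 of the 354 tested miRNAs (89.0%).

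The number of called miRNAs was 108 and ran from 64 (without TAC 81) to 83 when 1 mouse was left out, with 69 without TAC 78. The 68 higher and 40 lower calls became 50 and 56 with RLE, 41 and 63 with upper quartile factors, 43 and 72 without the 5 most abundant, 25 and 102 with library totals, 42 and 65 without a filter and 51 and 52 with counts divided by places. The median of all tested changes, 0.07, moved by -0.31 with library totals, -0.16 without the 5 most abundant, -0.15 with upper quartile factors and -0.21 without a filter. The restraining list went from 10 to 6 calls with library totals, and the promoting list ran from 4 to 8. The share difference of miR-22-3p, -0.0083 percentage points, was 0.050 with totals without the 5 most abundant, and -0.0255 to 0.00717 without 1 mouse. The log2 ratio of the strands, -0.17, was -0.27 to -0.05 without 1 mouse.

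Of 29 other named miRNAs, 15 were called, and 9 of them stayed called in every alternative. Calls were lost in 11 of 16 for let-7a-1-3p and miR-181a-1-3p, 8 for miR-30b-3p, 7 for miR-215-5p and 1 each for miR-30c-5p and let-7d-3p. Calls were gained in 8 for miR-423-3p, 6 for miR-27b-3p, 4 for miR-221-3p, 3 for miR-744-5p and 1 each for miR-149-5p, miR-132-5p and miR-365-1-5p. Uncalled values changed sign for 5. miR-23a-3p (0.01) was at -0.065 with DESeq2 and RLE, -0.30 with library totals, -0.14 with upper quartile factors, -0.15 without the 5 most abundant or a filter, -0.041 with at least 10 CPM, -0.042 divided by places, -0.043 with the GC trend and -0.051 to 0.076 without 1 mouse. miR-98-5p (0.08) was at -0.0022 with DESeq2, -0.23 with library totals, -0.078 with upper quartile factors, -0.087 without the 5 most abundant, -0.081 without a filter and -0.31 with the GC trend. With library totals miR-340-3p was at -0.012, miR-26a-5p at -0.093 and miR-145a-5p at -0.095. No paired analysis was possible because the animal numbers are not shared between the groups.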
